A study of Mus musculus with 6 samples.

Results

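Genes for antimicrobial proteins of the gut surface were examined in the mouse colon with and without tumour necrosis factor receptor 1 (TNFR1). The set was given by name as 10 genes, Reg3b, Reg3g, Reg4, Retnlb, Ang4, Itln1, Lypd8, Lyz1, Pla2g2a and Pglyrp1, out of 30330 genes with a value in the deposited table. For each gene the abundances of all its transcripts were added, each transcript once. RNA came from whole colons of 6 male mice aged 12 weeks. The wild-type group held 3 C57Bl/6J mice, and the knockout group held 3 mice labelled Tnfrsf1a-/- on the same named strain. No treatment is named for either group, the sources used here do not state which part of Tnfrsf1a was deleted or whether the groups were littermates. Values are in TPM, a measure of transcript abundance corrected for length and for the library's total, and the number of reads behind each value is unknown.

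Epithelial cells keep the bacteria of the gut lumen away from the tissue by secreting mucus together with lectins, lysozyme, ribonucleases and phospholipases that bind or damage microbes. Much of this secretion in the small intestine comes from Paneth cells, a crypt cell that the healthy mouse colon largely lacks, and in the colon from goblet cells, other secretory cells of the crypt and absorptive colonocytes. Microbial signals and the cytokine IL-22 are known inducers of the Reg3 lectins, type II cytokines of the resistin-like molecule Retnlb. TNF acts through TNFR1 mainly by activating NF-κB, a transcription factor with many targets in host defence.

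The targeted gene and the tissue were read first. The full-length Tnfrsf1a transcript, ENSMUST00000032491, had 67.6, 39.9 and 59.1 TPM in wild-type libraries and 23.5, 20.4 and 25.6 TPM in the knockout libraries, without overlap. Its summed gene value did overlap between the groups, at 71.2, 44.1 and 63.0 TPM against 49.2, 36.5 and 46.9 TPM. Part of the knockout value sat in ENSMUST00000125880, at 18.0, 12.4 and 14.1 TPM against 1.20, 1.20 and 0.890 TPM in the wild-type libraries. Colon identity was clear in all 6 libraries, with the distal homeobox gene Hoxb13 at 147 TPM or more and the colonocyte carbonic anhydrase Car1 at 927 TPM or more. Wild-type replicate 2 stood apart, because transcripts without an assigned gene held 27.4% of its TPM and between 1.86 and 7.23% in the others. That lowers every gene in this library, so results are also given after median-of-ratios scaling, which divides a library by the median ratio of its genes to the mean library, and after rescaling to transcripts with a gene.

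The 10 genes covered a very wide range of abundance and fell into a high and a low set. Lypd8 encodes a membrane-anchored protein of colonocytes that binds bacterial flagella, and it ranked between place 6 and place 8 of all genes in each library. Together the 10 genes held between 0.857 and 1.17% of all TPM, and Lypd8 alone made up between 94.8 and 95.7% of that sum. Its mean over the 6 libraries was 10220 TPM. Next came Reg4, a C-type lectin of deep crypt secretory cells, at a mean of 261.6 TPM, and Pglyrp1, which binds bacterial peptidoglycan, at 234.8 TPM. The ranges of these 2 genes overlapped, and Reg4 was the higher in 5 of 6 libraries. Lyz1, the lysozyme of Paneth cells, followed at 12.3 TPM, apart from its neighbours on both sides.

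The low set held the 6 other genes, and its neighbouring members overlapped in range throughout. Pla2g2a and Ang4 lay near 1 TPM, with means of 1.29 and 1.07 TPM. Itln1, Reg3g, Retnlb and Reg3b had means of 0.685, 0.189, 0.175 and 0.0926 TPM and stayed below 1 TPM in every library. Those 4 genes were left out of the test, which required 1 TPM or more on average, so 6 of the 10 genes were tested. Their levels were very low in wild type as well as in knockout.

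**Figure D1:**
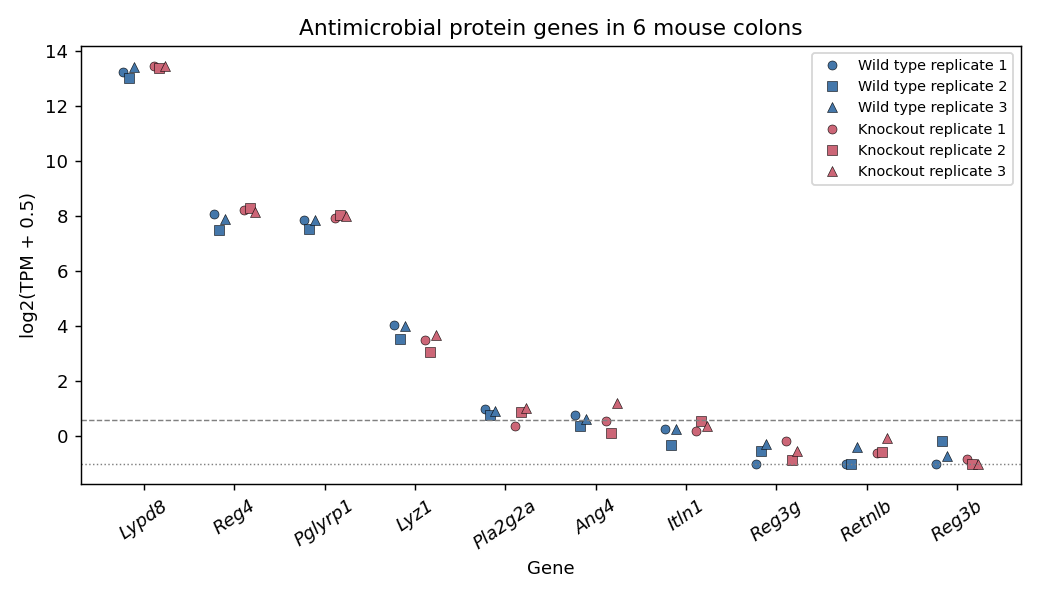
Level of each of the 10 genes as log2(TPM + 0.5) in the 3 wild-type and 3 knockout colons, 1 point per library, with genes ordered by their mean; the dotted line marks 0 TPM and the dashed line 1 TPM. Lypd8 lies far above Reg4 and Pglyrp1, Lyz1 lies between, and Itln1, Reg3g, Retnlb and Reg3b stay below 1 TPM in every library.

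The DNA just before the transcription start is shown for the 4 genes of the high set and for the Reg3 pair of the low set. Start sites and sequences are from RefSeq on GRCm38.p6, and 8 of the 10 genes were matched in the promoter table used here. Each line gives the last 100 bases before the start site, 5′ to 3′ on the gene's own strand. Capitals mark a match to a searched motif, and a sequence with no capitals had none within these bases.
Lypd8: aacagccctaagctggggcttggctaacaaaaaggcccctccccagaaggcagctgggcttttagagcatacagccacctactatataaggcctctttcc
Reg4: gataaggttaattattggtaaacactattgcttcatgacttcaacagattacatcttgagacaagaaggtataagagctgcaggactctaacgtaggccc
Pglyrp1: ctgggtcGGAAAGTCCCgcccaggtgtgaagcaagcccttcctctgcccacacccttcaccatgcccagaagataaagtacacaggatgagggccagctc
Lyz1: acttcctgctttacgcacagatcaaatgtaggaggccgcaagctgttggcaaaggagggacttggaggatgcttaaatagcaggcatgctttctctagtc
Reg3b: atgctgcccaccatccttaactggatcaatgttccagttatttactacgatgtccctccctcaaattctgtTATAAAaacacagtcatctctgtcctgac
Reg3g: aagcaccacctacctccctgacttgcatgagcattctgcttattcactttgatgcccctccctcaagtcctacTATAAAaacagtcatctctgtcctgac

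These stretches lie at chr11:58378932-58379031 for Lypd8, chr3:98222056-98222155 for Reg4 and chr7:18884590-18884689 for Pglyrp1, all on the plus strand. Those of Lyz1 at chr10:117292869-117292968 and Reg3g at chr6:78468875-78468974 are on the minus strand, and that of Reg3b at chr6:78370785-78370884 is on the plus strand. The sequences of Reg3b and Reg3g, both on chromosome 6, had 76 of 100 bases in common after alignment, and the other pairs among 8 genes had between 55 and 68. The searched window was 250 bases before the start on both strands, and in all 32851 RefSeq windows a TATA box (TATAAA) was found in 12.4%, a CDX core (TTTATG) in 10.8%, an HNF4 element (CAAAGTCCA) in 0.384%, a STAT element (TTCNNNGAA) in 7.02% and an NF-κB element (GGGA and TTCC with 2 bases between) in 1.21%. The TATA box matched in Reg3b from base -29 and in Reg3g from base -27, counted from the start site, and in Reg3g also further upstream. Reg3b also held a CDX core and a STAT element, Itln1 a CDX core and Ang4 a STAT element. None of the 5 motifs matched in the windows of Lypd8, Reg4 and Lyz1, and the NF-κB element matched once in Pglyrp1, from base -93. Only the letters given were searched, so near matches were not counted, such as TATAAG in the printed lines of Lypd8 and Reg4. The absence of a match is therefore not the absence of a TATA box. A match is a string of letters in this window and was not tested for binding.

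Knockout and wild type were compared with limma on log2(TPM + 0.5), with p-values adjusted over all genes by the Benjamini-Hochberg method. The p-values rest on the spread between these 6 mice, with each gene's spread drawn toward that of all genes tested at its level. None of the 6 tested genes passed an adjusted p of 0.05, where 0.267% of 14248 genes did (38 genes). After median-of-ratios scaling none passed either, where 0.0421% of genes did. At an unadjusted p of 0.05, 1 of the 6 passed with TPM as deposited (Reg4) and 2 after scaling (Reg4 and Lyz1), beside 3.69 and 11.3% of all genes. Of the 6 log2 fold changes 4 were positive and 2 negative, with a median of 0.12 beside 0.02 for all genes tested. Over all genes tested, 7936 log2 fold changes were positive and 6312 negative. The groups did not overlap for 2 of the 6 (Reg4 and Pglyrp1), beside 4.98% of all genes, after scaling for 2 (Reg4 and Lyz1), beside 18.5%, and after rescaling to transcripts with a gene for 3 (Lypd8, Reg4 and Lyz1), beside 21.0%. None of their tested transcripts passed the adjusted threshold, where 0.0419% of 31056 transcripts did, and 0.0451% after scaling. At an unadjusted p of 0.05 the transcript of Reg4 passed, beside 5.02% of all. Exact permutation tests of single genes cannot go below p = 0.1 with 3 mice against 3, and over the 10 genes none had a Benjamini-Hochberg adjusted permutation p below 0.5.

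**Figure D2:**
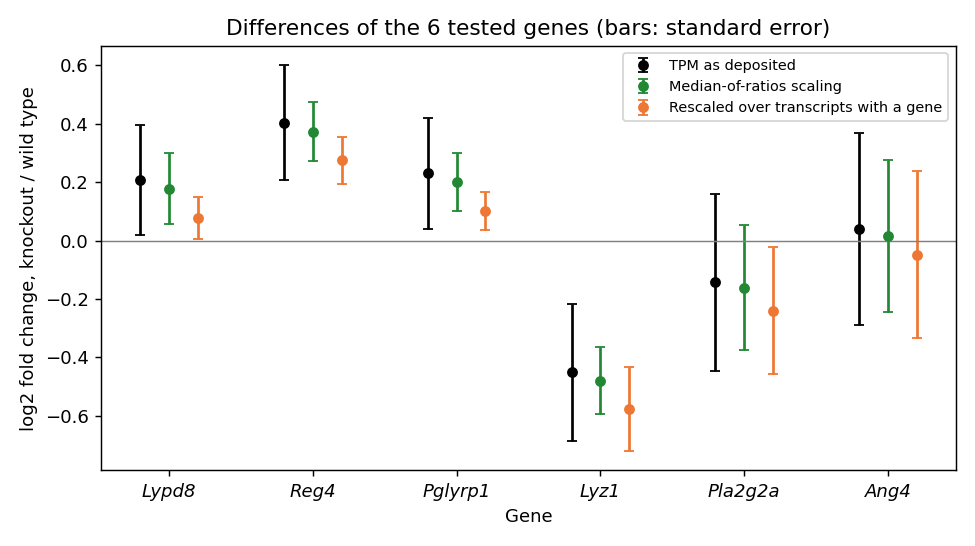
Log2 fold change, knockout over wild type, of the 6 tested genes with its standard error, for TPM as deposited and for both rescaled versions; points above 0 are higher in knockout. Reg4, Pglyrp1 and Lypd8 lie above and Lyz1 below 0 by more than the standard error in each version, and no gene passed the adjusted threshold.

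Lypd8 (ENSMUSG00000013643; mm10 chromosome 11, 58379043 to 58390728) measured 9496, 8188 and 10864 TPM in wild-type colons and 11164, 10525 and 11083 TPM in knockout. The knockout libraries lay close together, and wild-type replicate 3 was within their range. Means were 9516 ± 1338 and 10924 ± 348 TPM (SD, n = 3). The log2 fold change was 0.21 ± 0.19 (SE; limma adjusted p = 1.0), and 0.08 ± 0.07 after rescaling to transcripts with a gene (adjusted p = 0.639). After that rescaling the groups no longer overlapped. Relative to 10 epithelial genes of the same library, such as Epcam and Cdh17, the difference was 0.08 on the log2 scale, with overlap (exact permutation p = 0.3).

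Within Lypd8, the balance of its 2 transcripts differed between the groups without overlap, a comparison chosen after the transcript values were seen. ENSMUST00000013787, the main form, carries an extra exon (58379645 to 58379709, 65 bases). ENSMUST00000108826 skips it and has a last exon that is 191 bases longer (58390538 to 58390728). In the GENCODE annotation their other exons are the same, and both last exons begin at the same base. The main form measured 8974, 7704 and 10251 TPM in wild-type colons and 10655, 10051 and 10584 TPM in knockout. The form with the longer last exon measured 522, 484 and 613 TPM in wild-type colons and 509, 474 and 499 TPM in knockout.

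Its share of Lypd8 TPM was 5.50, 5.91 and 5.64% in wild type and 4.56, 4.50 and 4.50% in knockout. Every knockout library lay below every wild-type library, and the spread within knockout was small. The means were 5.68 ± 0.208% and 4.52 ± 0.0346% (SD, n = 3; exact permutation p = 0.1, the smallest possible). Such a share does not depend on the scaling of a library. In a limma fit of the log2 ratio of a transcript to the rest of its gene, over 24009 transcripts, the difference was -0.35 ± 0.15 (SE; adjusted p = 0.452), and 0.0333% of transcripts passed. Groups without overlap were common among these shares, at 18.8% of transcripts. Of the 31-base words in the longer form, 81.7% also occur in the main form, so the split of reads between them is an estimate.

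**Figure D3:**
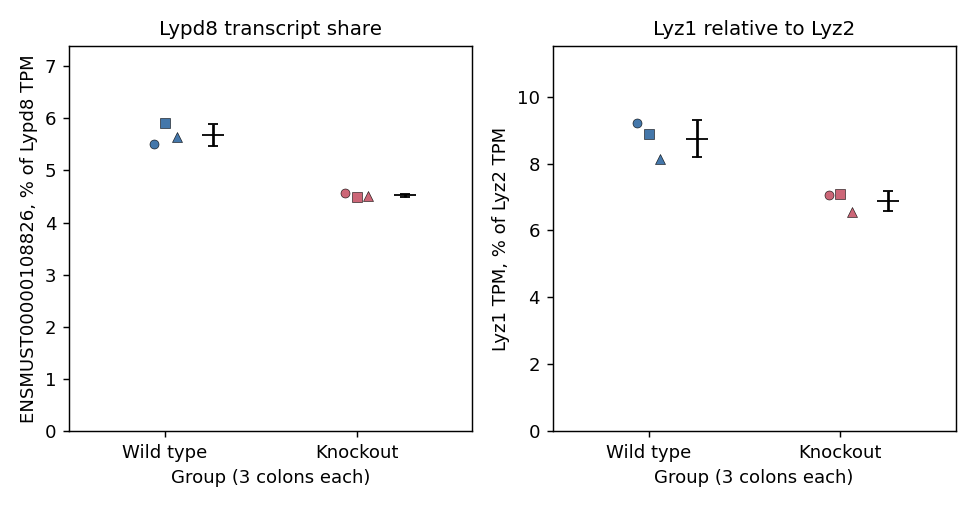
Left, share of Lypd8 TPM in the transcript with the longer last exon, in percent; right, Lyz1 TPM as a percentage of Lyz2 TPM; 1 point per library, with the mean and SD beside them (n = 3 per group). In both panels all 3 knockout libraries lie below all 3 wild-type libraries.

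Reg4 (ENSMUSG00000027876; chromosome 3, 98222156 to 98236748) had the largest positive log2 fold change of the 6 tested genes. It measured 267, 179 and 235 TPM in wild-type colons and 295, 309 and 285 TPM in knockout, and the lowest knockout library lay above the highest wild-type library. Means were 226.9 ± 44.8 and 296.4 ± 12.0 TPM (SD, n = 3), a ratio of 1.31. The log2 fold change was 0.40 ± 0.20 (SE; limma adjusted p = 1.0). After median-of-ratios scaling it was 0.37 ± 0.10 (limma adjusted p = 0.337), and without wild-type replicate 2 it was 0.24 ± 0.09 (adjusted p = 0.622).

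Relative to the epithelial genes, Reg4 stood at -1.40, -1.60 and -1.68 in wild type and at -1.35, -1.15 and -1.37 in knockout on the log2 scale. The difference was 0.27 without overlap (exact permutation p = 0.1, Benjamini-Hochberg adjusted 0.5 over the 10 genes). Relative to 10 goblet cell genes the difference was 0.14 and the groups overlapped (exact permutation p = 0.4). The summed level of those goblet cell genes was itself higher in knockout without overlap, from 4272 to 6025 TPM in wild-type colons and from 6202 to 6758 TPM in knockout. Summed levels of lists, here and below, are of TPM as deposited, and their overlap was not checked after scaling. Of the 10 goblet cell genes none passed the adjusted threshold and 9 had a positive log2 fold change, with a median of 0.27. The part of the goblet cell genes in the difference of Reg4 was not tested. In RNA of a whole tissue, more cells of a type and more RNA per cell cannot be told apart. Among the other Reg genes, Reg1, Reg2, Reg3a and Reg3d were listed at 0 in all 6 libraries.

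Pglyrp1 (ENSMUSG00000030413; chromosome 7, 18871331 to 18890459) measured 233, 185 and 233 TPM in wild-type colons and 243, 259 and 256 TPM in knockout. The groups did not overlap in the deposited values, and the gap between them was narrow. Means were 217 ± 27.7 and 253 ± 8.43 TPM (SD, n = 3). The log2 fold change was 0.23 ± 0.19 (SE; limma adjusted p = 1.0), 0.20 ± 0.10 after median-of-ratios scaling (adjusted p = 0.488) and 0.10 ± 0.06 after rescaling to transcripts with a gene (adjusted p = 0.522). After either rescaling the groups overlapped, as they did relative to the epithelial genes, where the difference was 0.10 (exact permutation p = 0.3).

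Pglyrp1 is also a protein of neutrophil granules, so the neutrophil list was read beside it. S100a9 rose in knockout, at 8.91, 5.23 and 11.4 TPM against 23.5, 16.4 and 38.3 TPM (limma log2 fold change 1.54 ± 0.28, adjusted p = 0.00656, and 0.273 after scaling). All 4 tested genes of this list had a positive log2 fold change, with a median of 1.19 (1 passed, and 0 after scaling). S100a8 had 9.86, 8.15 and 14.2 TPM against 26.6, 15.3 and 28.9 TPM (limma log2 fold change 1.09 ± 0.25, adjusted p = 0.0633), without overlap. The granule gene Ltf had 5.25, 2.01 and 11.3 TPM against 12.0, 11.7 and 15.8 TPM (limma log2 fold change 1.29 ± 0.33, adjusted p = 0.132), also without overlap. The granule genes Mpo, Elane, Ngp and Mmp8 were below 0.2 TPM in every library, and 7 of the 12 neutrophil genes stayed below 1 TPM throughout. The list's summed level ran from 154 to 222 TPM in wild-type colons and from 229 to 257 TPM in knockout, most of it from Ly6g, a member of a gene family with similar sequences. The part of these cells in the values of Pglyrp1 was not tested. Its relatives Pglyrp2 and Pglyrp3 were below 1 TPM in every library and Pglyrp4 reached at most 2.78 TPM.

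Lyz1 (ENSMUSG00000069515; chromosome 10, 117287797 to 117292868) had the largest negative log2 fold change of the 6 tested genes. It measured 15.9, 11.2 and 15.7 TPM in wild-type colons and 10.7, 7.94 and 12.5 TPM in knockout. Wild-type replicate 2 lay within the knockout range in the deposited values. After median-of-ratios scaling wild type stood at 14.1, 14.3 and 14.3 and knockout at 10.1, 8.65 and 11.7, without overlap. Means of the deposited values were 14.3 ± 2.66 and 10.4 ± 2.28 TPM (SD, n = 3). The log2 fold change was -0.45 ± 0.23 (SE; limma adjusted p = 1.0), -0.48 ± 0.11 after scaling (limma adjusted p = 0.334) and -0.61 ± 0.19 without wild-type replicate 2 (adjusted p = 0.618).

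The ratio to the epithelial genes gave the same order for Lyz1. On the log2 scale wild type stood at -5.43, -5.54 and -5.54 and knockout at -6.07, -6.35 and -5.83, a difference of -0.58 without overlap (exact permutation p = 0.1). Relative to smooth muscle genes the difference was smaller, at -0.36, and relative to goblet cell genes larger, at -0.71, both without overlap (exact permutation p = 0.1). Relative to smooth muscle genes Reg4, Itln1, Pglyrp1 and Lypd8 also did not overlap, but were higher in knockout (0.50, 0.40, 0.33 and 0.30). Itln1 stayed below 1 TPM in every library, and overlapped relative to the epithelial genes (0.17) and the goblet cell genes (0.04). Relative to goblet cell genes the related Lyz2 (-0.39) and Reg3b (-0.57) also did not overlap and were lower in knockout. Reg3b stayed below 1 TPM in every library. The share of all genes without overlap was not counted for such ratios, for any of these genes.

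**Figure D4:**
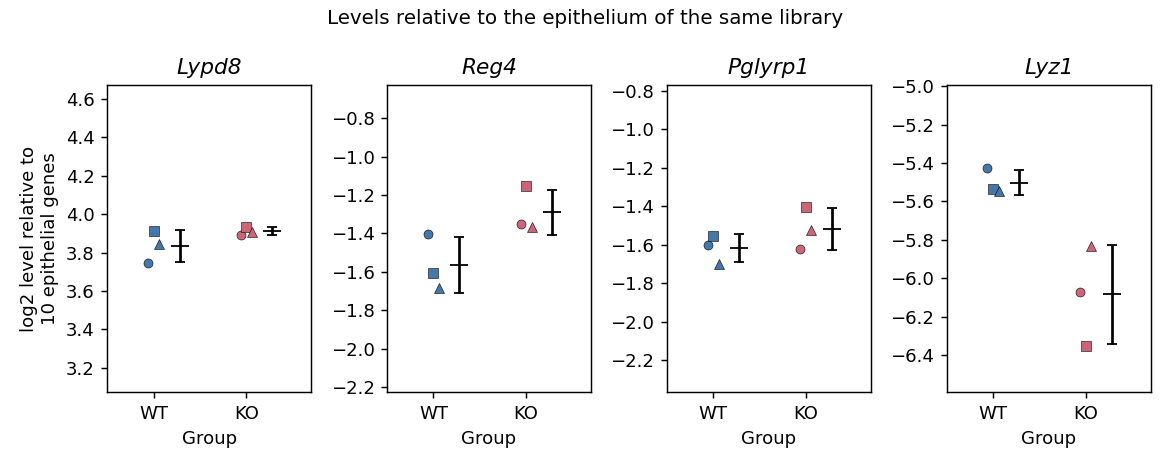
Log2 level of Lypd8, Reg4, Pglyrp1 and Lyz1 minus the mean log2 level of 10 epithelial genes in the same library, 1 point per library, with the mean and SD beside them (WT wild type, KO knockout, n = 3 each); every panel spans the same log2 range. Lyz1 is lower in all 3 knockout libraries and Reg4 higher, while Lypd8 and Pglyrp1 overlap between the groups.

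Lyz1 lies next to Lyz2, the lysozyme of macrophages and other myeloid cells, and 34.2% of the 31-base words of its transcript also occur in that of Lyz2. Reads can therefore be shared, and the level of the scarcer Lyz1 is uncertain. Lyz2 measured 173, 126 and 193 TPM in wild-type colons and 151, 112 and 190.5 TPM in knockout, with overlap (limma log2 fold change -0.13, adjusted p = 1.0). Lyz1 as a percentage of Lyz2 was 9.21, 8.90 and 8.12% in wild type and 7.06, 7.08 and 6.54% in knockout, again without overlap. The means were 8.74 ± 0.561% and 6.89 ± 0.302% (SD, n = 3; exact permutation p = 0.1, adjusted 0.5 over 5 such ratios chosen after the values were seen). In the other ratios the groups overlapped (exact permutation p from 0.3 to 0.7). Those were Reg4 to Muc2, Reg4 to Lypd8, Pglyrp1 to Lypd8 and Lypd8 to Zg16.

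Paneth cells and macrophages, the cells best known for lysozyme, were read from their markers. The Paneth cell defensins Defa21 and Defa30 were listed at 0 in all 6 libraries, and Defa17, Defa22 and Defa24 were each at 0 in 5 of 6. Mmp7, the protease that activates those defensins, was below 0.2 TPM in every library. Of 12 Paneth cell and small intestine genes 10 stayed below 1 TPM throughout, and their summed level, mostly Fabp6, ran from 14.4 to 21.1 TPM in wild-type colons and from 15.3 to 17.6 TPM in knockout. The 10 macrophage genes had 5 positive and 5 negative log2 fold changes and a median of 0.0046 (0 passed), with a summed level from 238 to 364 TPM in wild-type colons and from 233 to 367 TPM in knockout. Their part in the level of Lyz1 was not tested.

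In the low set the groups overlapped for each of the 6 genes. Pla2g2a, a phospholipase that attacks bacterial membranes and carries a well-known frameshift in C57BL/6 mice, measured 1.49, 1.20 and 1.41 TPM in wild-type colons and 0.802, 1.33 and 1.52 TPM in knockout. Its log2 fold change was -0.14 ± 0.30 (SE; limma adjusted p = 1.0). RefSeq lists the gene as a transcribed pseudogene and GENCODE as a polymorphic pseudogene.

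The abundance of Pla2g2a was assigned to different transcripts from library to library. In wild-type replicate 1 and knockout replicate 3 nearly all of it was in ENSMUST00000135748, the pseudogene form, at 1.45 and 1.52 TPM, with the protein-coding ENSMUST00000077582 listed at 0. In the 4 other libraries the coding form had between 0.802 and 1.20 TPM and the pseudogene form almost none. These 2 transcripts share 95.6% of the 31-base words of the coding form, so the switch between them cannot be taken as a measurement, and only the gene total is used.

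Ang4, a ribonuclease of Paneth and goblet cells with antibacterial activity, measured 1.21, 0.784 and 1.05 TPM in wild-type colons and 0.957, 0.590 and 1.83 TPM in knockout. Knockout held both the lowest and the highest library. Its log2 fold change was 0.04 ± 0.33 (SE; limma adjusted p = 1.0). The related Ang, at 19.9 ± 5.84 TPM in colons of wild-type mice and 23.3 ± 1.01 TPM in those of knockout mice, was far more abundant, and Ang5 and Ang6 were listed at 0 in all 6 libraries.

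Itln1, a goblet cell lectin that binds sugars of microbial surfaces, measured 0.691, 0.315 and 0.693 TPM in wild-type colons and 0.653, 0.975 and 0.785 TPM in knockout, with overlap. Retnlb was listed at 0 in 2 wild-type libraries and at 0.257 TPM in the third, and had 0.153, 0.184 and 0.456 TPM in knockout. Again the groups overlapped. The related Retnla, known from macrophages and other cells, was present at 63.5, 26.1 and 52.8 TPM in wild-type colons and 55.1, 32.3 and 74.2 TPM in knockout.

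Reg3g, a lectin that kills Gram-positive bacteria, had 0, 0.192 and 0.321 TPM in wild-type colons and 0.381, 0.0506 and 0.190 TPM in knockout. Reg3b had 0, 0.380 and 0.110 TPM in wild-type colons and 0.0653 TPM in knockout replicate 1, and was listed at 0 in the other two. In both genes the groups overlapped, and each had a library at 0. No fold change of TPM is given for these 4 genes, which were below the filter. Only ratios to marker genes of the same library were given, for Itln1 and Reg3b.

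The known inducers of these genes were read from lists of their pathways. Of the IL-22 and IL-17 list 13 of 19 genes were tested and none passed, with a median log2 fold change of -0.03. The cytokine Il22 was listed at 0 in 5 libraries and at 0.0601 TPM in wild-type replicate 3, and Il17a stayed at or below 0.104 TPM, while the receptor subunit Il22ra1 had 23.7 ± 2.70 TPM in colons of wild-type mice and 30.8 ± 0.561 TPM in those of knockout mice (limma log2 fold change 0.38, adjusted p = 1.0). In means with SD (n = 3), Il17f had 6.56 ± 2.10 and 4.79 ± 1.67 TPM, and the decoy receptor Il22ra2 1.99 ± 0.568 and 1.46 ± 1.18 TPM. Il22, Il17a and the Reg3 lectins were thus all near 0 in both groups, while Il17f was not.

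Of the type II cytokine list, 5 of 9 genes were tested and none passed (median 0.02). Il13 was at 0 in 5 libraries and Il9 in all 6. The 3 genes with the smallest p were Il13ra1 (40.9 ± 7.74 and 48.3 ± 2.36 TPM), Il4 (2.56 ± 0.956 and 3.22 ± 0.580 TPM) and Il33 (9.09 ± 3.75 and 8.39 ± 1.09 TPM), each wild type before knockout. Of 12 genes that sense microbes 10 were tested and none passed (median 0.06). Tlr4, a receptor for lipopolysaccharide, had 8.44 ± 1.12 and 10.8 ± 2.54 TPM, and its adaptor Myd88 23.4 ± 3.55 and 23.9 ± 2.70 TPM. The signalling genes Card9 and Ripk2 had 2.0 ± 0.466 and 1.41 ± 0.450 TPM and 4.34 ± 0.951 and 5.11 ± 0.391 TPM.

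Other antimicrobial genes of the colon were compared with the 10. Of 22 listed genes 17 were tested, and 2 were higher in knockout, Duoxa2 and S100a9, with 14 positive and 3 negative log2 fold changes and a median of 0.31. After scaling 1 of them, Duoxa2, passed. The list was drawn up with these results known, so its direction is not independent evidence. Duoxa2, which the peroxide-forming epithelial oxidase Duox2 needs to mature, was at 6.33, 4.24 and 6.68 TPM against 15.4, 12.1 and 14.8 TPM (limma adjusted p = 0.0111, and 0.00668 after scaling). Zg16, a goblet cell lectin that aggregates bacteria, had 3156 ± 511 and 3908 ± 200.3 TPM, and Defb45 63.8 ± 2.96 and 52.7 ± 0.976 TPM; neither passed (limma adjusted p = 1.0 for each).

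Of 20 listed relatives of the 10 genes, 18 were in the table, 13 were tested and none passed (median log2 fold change 0.16). The 3 with the smallest p were Pla2g2f, at 18.5 ± 3.35 TPM in colons of wild-type mice and 22.9 ± 0.682 TPM in those of knockout mice, Pla2g2e, at 1.43 ± 0.145 and 1.01 ± 0.194 TPM, and Ang. Pla2g2f and Pla2g10, the latter at 110.4 ± 20.2 and 122 ± 2.98 TPM, were both more abundant than Pla2g2a in every library. The summed level of the adipocyte list also differed, from 52.2 to 148 TPM in wild-type colons and from 179 to 247 TPM in knockout without overlap, with its adipsin gene Cfd past the threshold (limma adjusted p = 0.00817, and 0.286 after scaling). All 10 B and plasma cell genes had a negative log2 fold change (median -0.87, and -0.91 after scaling; 0 passed), and their summed level ran from 41.2 to 65.0 TPM in wild-type colons and from 18.4 to 45.5 TPM in knockout. All 8 genes of squamous epithelium, the lining next to the anus, had a positive one (median 0.50, and 0.49 after scaling; 0 passed), with a summed level from 137 to 570.2 TPM in wild-type colons and from 457 to 545 TPM in knockout. Over all genes tested, 7936 log2 fold changes were positive and 6312 negative. The part of the adipocyte, B and plasma cell and squamous lists in the values of the antimicrobial genes was not tested.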

How the data were processed

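RNA of 6 whole mouse colons was measured, 3 per genotype. The authors deposited a signal per transcript and library, in TPM (abundance normalised for transcript length and library total), quantified with kallisto 0.43.1 on mm10, with sleuth for their own tests, per the submitters' processing notes; the sources used here do not state the transcript set. The table held 132639 lines for 131206 transcripts. Each transcript was taken once, 43008 without a value were left out, as were 1380 with no gene, and TPM were summed per gene symbol. Read depth per library is unknown, and values carry no counting interval.

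Genes averaging 1 TPM or more were compared as log2(TPM + 0.5) with limma 3.58.1 in R 4.3.3 (lmFit, eBayes with a variance trend), adjusted by the Benjamini-Hochberg method over all genes tested, with a threshold of 0.05. Single transcripts were fitted likewise (31056 tested), and transcript shares without a trend. Exact permutation tests of single values were two-sided. The fits were tested on simulated data. Positions are from GENCODE M21 on mm10, and start sites and promoter sequences from RefSeq on GRCm38.p6.

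The 10 genes and all lists were chosen with earlier results of these data known. Named genes are the 10, the targeted gene, their relatives and up to 3 genes of each other list, those called or with the smallest p; Myd88, Zg16, Defb45, Pla2g10, Il22, Il17a, Il9, Il13, Car1 and single cell type markers were named outside that rule, after their values were seen. The replicate numbers of the labels were not used to pair the libraries in the main fits. Correlations of same-numbered libraries' deviations from their group means ran from 0.052 to 0.183. Those of differently numbered libraries ran from -0.244 to 0.098, so a pairing by number is not excluded. Alternatives were pseudocounts, filters, scalings, the variance trend, a replicate block and each library left out.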

Additional observations from a re-analysis of the deposited data

How the results depend on the processing

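No gene of the 10 and no transcript of theirs passed the adjusted threshold in any of the 15 alternatives in which it was tested. Lypd8, Reg4, Pglyrp1 and Lyz1 were tested in all 15, Pla2g2a in all except the filter at 5 TPM, and Ang4 in all except that filter and the fit without knockout replicate 3. Reg3b, Reg3g, Retnlb and Itln1 were tested only with no filter on low values. The count of all genes past it, 38 in limma with TPM as deposited, moved widely. It was 24 with a pseudocount of 0.1, 1 with no filter on low values, 142 with a filter at 5 TPM, 6 after median-of-ratios scaling, 7 after quantile normalization and 4 after rescaling to transcripts with a gene. With the replicate number as a block it was 71; the numbers share no stated litter or batch, and 5 of 6 libraries correlated best with their own number. With 1 library left out it ran from 20 (without wild-type replicate 2) to 298 (without wild-type replicate 1). The cause was not tested.

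The log2 fold changes of Reg4, Lypd8 and Pglyrp1 stayed positive in all alternatives, between 0.24 and 0.53, 0.07 and 0.31, and 0.08 and 0.29, and that of Lyz1 negative, between -0.61 and -0.28. That of Ang4 was -0.048 after rescaling to transcripts with a gene, and with 1 library left out it ran from -0.26 to 0.29, negative without wild-type replicate 2 (-0.08) or knockout replicate 3. That of Pla2g2a ran from -0.27 to 0.045, positive without knockout replicate 1. The Lypd8 transcript share, an added comparison, stayed between -0.37 and -0.32 on the log2 ratio scale (limma adjusted p from 0.386 to 0.669).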
